A study of Mus musculus with 4 samples.

Results

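The genes described here are mouse developmental transcription factors of 7 families, Pax, Dlx, Irx, Nkx, Sox, Lhx and the sine oculis homeobox genes (Six2 and its relatives), and the noncoding transcripts named after them. They were chosen by name from the authors' peak annotation: every gene whose symbol is one of those family names followed by a digit, except Six6, Sox2, Lhx3 and Lhx4. The rule used no measured value. It found 881 of the 417506 annotated peaks in the 4 lists, named for 71 of 35667 gene names, of which 57 were annotated as protein coding. By library, 194 and 399 peaks of the vehicle libraries 1 and 2 and 155 and 133 of the activin libraries 1 and 2 were named for these genes. Merging overlapping peaks across libraries gave 554 member regions among 255101.

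Pax, Dlx, Irx, Nkx, Lhx and Six2-type proteins bind DNA mainly through a homeodomain or a paired domain, and Sox proteins through an HMG box. They set the identity of organs and neurons in the embryo, and each is normally active in a few lineages. In cells where such genes are silent, their CpG-rich promoters are often held under Polycomb repression, whereas the promoters of genes in use are usually open to nucleases and transposases. In the pituitary, the related factors Six6, Sox2, Lhx3 and Lhx4 act in the growth and patterning of the gland.

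The assay was ATAC-seq: a transposase places sequencing adapters into accessible DNA. The cells were LβT2, an established mouse line labelled as gonadotrope, the pituitary cell that makes luteinizing and follicle-stimulating hormone; the labels' protocols call the line LβT2b. Treatment groups of 2 libraries each were compared: vehicle, and activin A at 1 nM, both for 6 h after a night in serum-free medium, with 350000 cells seeded per well and 50000 taken for each reaction. Activin A is a ligand of the TGFβ family that acts on gonadotropes. The labels do not say whether the libraries of a group came from separate cultures, so the p-values below measure only the spread between these libraries.

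The libraries held 275983526 to 375610146 reads in total and 172146474 to 224226184 high-quality autosomal alignments, called high-quality reads here. Peak lists held 83344 and 178358 peaks with vehicle against 85112 and 70692 with activin. Vehicle library 2 had the most peaks and the lowest enrichment at transcription start sites, 2.48 against 2.72 in vehicle library 1 and 3.12 and 3.04 in the activin libraries. The part of this difference in the results was not tested. Of 11 gonadotrope markers, 5 had strong promoter peaks in all 4 libraries (among them Lhb, Cga, Gnrhr and Egr1), 4 in 1 to 3 libraries, Pitx1 had weak ones and Fshb had none. Of 6 markers of other pituitary lineages, none was strong in any library, and Prl and Tshb had no peak named for them. Of 10 markers of folliculostellate, leukocyte, fibroblast and endothelial cells none was strong in all libraries, and Sox9, Col1a1 and Cdh5 were strong in some.

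Each peak carries the −log10 of the peak caller's q-value (column 9 of the list), which grades how far the signal stands above local background, and a fold over that background. These are the authors' values for the peak. A promoter peak is one annotated to the start site of the gene itself or centred within 1 kb of the start to which the file gives a distance, and the strongest such peak of each library was kept. Promoters are called open where this peak reached a −log10 q of 5 in all 4 libraries, partly open where it did so in 1 to 3, and weak where peaks were called but none reached 5. No peak means that none passed the caller's limit, close to a −log10 q of 1 in every list, and does not show that the DNA was closed.

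By these classes 8 of the 71 genes had an open promoter, 9 a partly open one, 25 a weak one and 29 no promoter peak. Over all 35667 gene names, 16.8% were open, 9.47% partly open, 27.2% weak and 46.5% without a promoter peak. Among protein-coding genes alone the members numbered 8 open, 8 partly open, 23 weak and 18 without a peak of 57. The background over 18840 protein-coding names was 28.4%, 14.7%, 26% and 30.9%, so the 14.0% of coding members that were open lay below the share of all coding genes, and the 40.4% that were weak lay above it. The open genes described here are Six2, Lhx2, Sox12, Dlx1, Irx3, Irx5 and Sox11. No promoter of the Pax or Nkx family was open under the members' own gene names.

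The 300-base promoter windows of 7 genes are printed here because they share dense CpG dinucleotides and differ in whether a peak lay over them. They come from RefSeq on build GRCm38.p6, run 5′ to 3′ on the gene's strand from 250 bases before the start to 50 after it, and were chosen after the values were seen. Capitals mark each CG dinucleotide. The first 4 windows lay under peaks that reached 5 in all 4 libraries: Six2 at chr17:85688205-85688504 on the minus strand, Lhx2 at chr2:38351058-38351357 on the plus strand, Sox12 at chr2:152397997-152398296 on the minus strand and Irx2 at chr13:72628570-72628869 on the plus strand.
Six2: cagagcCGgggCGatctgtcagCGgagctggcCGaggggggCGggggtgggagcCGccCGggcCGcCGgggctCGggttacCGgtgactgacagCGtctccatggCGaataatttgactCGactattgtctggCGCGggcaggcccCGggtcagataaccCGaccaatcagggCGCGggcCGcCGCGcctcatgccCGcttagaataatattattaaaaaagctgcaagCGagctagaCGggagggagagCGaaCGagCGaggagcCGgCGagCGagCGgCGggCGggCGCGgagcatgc
Lhx2: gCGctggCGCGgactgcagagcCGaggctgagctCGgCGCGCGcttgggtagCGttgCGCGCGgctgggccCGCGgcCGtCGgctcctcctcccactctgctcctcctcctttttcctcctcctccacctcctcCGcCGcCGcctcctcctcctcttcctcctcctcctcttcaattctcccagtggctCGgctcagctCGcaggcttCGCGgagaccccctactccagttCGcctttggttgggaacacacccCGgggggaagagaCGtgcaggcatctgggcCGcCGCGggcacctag
Sox12: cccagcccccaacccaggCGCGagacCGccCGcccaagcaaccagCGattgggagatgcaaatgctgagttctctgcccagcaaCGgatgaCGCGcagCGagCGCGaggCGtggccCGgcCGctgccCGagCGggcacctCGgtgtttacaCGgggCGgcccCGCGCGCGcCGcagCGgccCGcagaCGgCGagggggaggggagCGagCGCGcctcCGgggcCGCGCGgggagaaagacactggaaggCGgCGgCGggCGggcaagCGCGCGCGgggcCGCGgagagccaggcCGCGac
Irx2: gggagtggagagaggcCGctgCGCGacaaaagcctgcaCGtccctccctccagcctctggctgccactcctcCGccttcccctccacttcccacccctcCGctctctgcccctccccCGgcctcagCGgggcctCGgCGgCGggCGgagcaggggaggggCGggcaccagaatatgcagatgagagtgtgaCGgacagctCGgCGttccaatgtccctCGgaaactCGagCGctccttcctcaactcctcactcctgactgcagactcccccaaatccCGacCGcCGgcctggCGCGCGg
The other 3 windows had no peak in any library: Irx4 at chr13:73260247-73260546 on the plus strand, Lhx1 at chr11:84525485-84525784 on the minus strand and Nkx6-2 at chr7:139582748-139583047 on the minus strand.
Irx4: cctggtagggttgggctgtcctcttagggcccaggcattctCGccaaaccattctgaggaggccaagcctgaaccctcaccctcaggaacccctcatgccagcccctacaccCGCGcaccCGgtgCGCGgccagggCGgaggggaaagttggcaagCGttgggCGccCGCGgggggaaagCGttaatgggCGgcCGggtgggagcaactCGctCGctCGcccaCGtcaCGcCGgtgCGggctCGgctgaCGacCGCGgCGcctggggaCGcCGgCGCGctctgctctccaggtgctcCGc
Lhx1: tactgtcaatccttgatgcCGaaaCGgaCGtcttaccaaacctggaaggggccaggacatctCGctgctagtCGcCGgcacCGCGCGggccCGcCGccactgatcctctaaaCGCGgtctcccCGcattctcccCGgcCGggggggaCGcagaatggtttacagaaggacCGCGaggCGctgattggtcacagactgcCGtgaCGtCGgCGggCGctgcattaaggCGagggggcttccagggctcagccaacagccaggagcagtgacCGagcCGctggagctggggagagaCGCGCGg
Nkx6-2: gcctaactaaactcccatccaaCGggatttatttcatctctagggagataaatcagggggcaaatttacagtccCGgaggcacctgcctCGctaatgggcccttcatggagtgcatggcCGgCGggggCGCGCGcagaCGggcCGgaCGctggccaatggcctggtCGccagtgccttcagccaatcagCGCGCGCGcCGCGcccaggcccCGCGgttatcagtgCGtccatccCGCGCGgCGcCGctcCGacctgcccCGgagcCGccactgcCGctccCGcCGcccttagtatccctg
The open windows held 37 CG dinucleotides in Six2, 29 in Lhx2, 47 in Sox12 and 25 in Irx2. The windows without a peak held 31 in Irx4, 31 in Lhx1 and 32 in Nkx6-2.

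The RefSeq table gave 68 such windows for 55 genes that fit the naming rule, 48 of which had a peak named for them. Any peak overlapping a window was counted here, whatever gene it was named for. A peak strong in all libraries lay over 8 windows, 9 were partly open, 15 weak and 36 had no peak, against 25.8%, 8.68%, 11.7% and 53.8% of all 32851 windows in the table. A window was called CpG-rich at a GC content of at least 50% and an observed CpG number of at least 0.6 of that expected from its C and G content. CpG-rich windows made up 39 of the members' 68 (57.4%) and 33.5% of all windows. Of all 10995 CpG-rich windows, 63.8% were open, 15.8% partly open, 9.8% weak and 10.6% had no peak. Of the members' 39, 8 were open (20.5%), 8 partly open, 10 weak and 13 had no peak (33.3%). All 8 open member windows were CpG-rich, those of Dlx1, Irx2, Irx3, Lhx2, Six2, Sox8, Sox11 and Sox12.

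**Figure D1:**
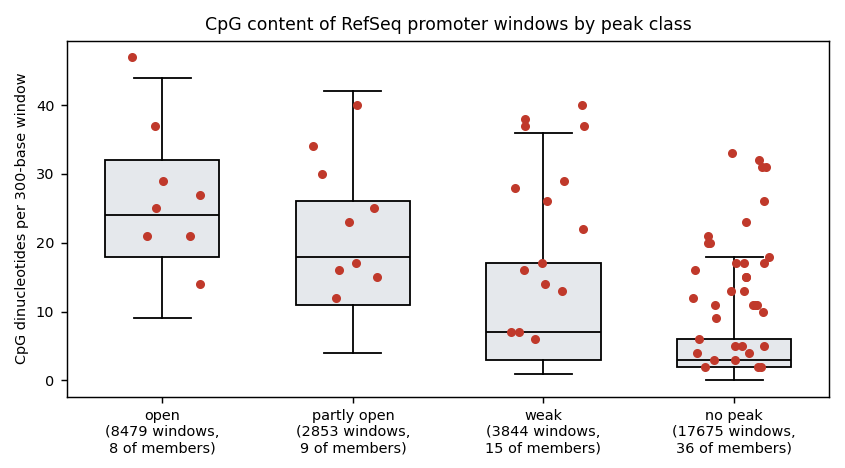
CpG dinucleotides in each 300-base RefSeq promoter window (y axis) by the class of the peak lying over it (x axis). Boxes show the median, quartiles and the 5th to 95th percentile of all windows and red points the members; the median over all windows without a peak was 3, while member windows without a peak ranged from 2 to 33.

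The median window without a peak held 3 CG dinucleotides over the whole table and 12.5 among the members. At open windows the medians were 24 and 26. Short letter strings were searched on both strands in the same windows, as a description of sequence only. TAATTA, a core letter string of many homeodomain sites, was in 4 of 68 member windows (5.88%) and 5.29% of all windows, and in none of the 8 open member windows. ACAATG, a core of Sox sites, was in 6 member windows (8.82%) against 12.6% of all. GGGCGG, which overlaps CpG content, was in 35 member windows (51.5%) against 35.7% of all, and CAGAC, a letter string bound by SMAD proteins, in 43 (63.2%) against 49.6%. CCAAT was in 29 (42.6% against 37.4%) and TATAAA in 4 (5.88% against 13.6%).

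Sine oculis homeobox proteins bind DNA with a homeodomain and a neighbouring domain of their own and act with Eya coactivators. Six2, which keeps kidney progenitors undifferentiated, had promoter −log10 q values of 22.5 and 19.5 with vehicle against 37.7 and 29.2 with activin, in the region chr17:85687594-85689261. The read density there, in high-quality reads per kb of peak per 1000000 high-quality reads of the library, was 6.23 and 5.14 with vehicle against 8.19 and 7.60 with activin. In each measure the lower activin value exceeded the higher vehicle value.

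Six4, a factor of muscle and sensory ganglia, was partly open. It had promoter peaks in 3 libraries, at 5.13 and 4.23 with vehicle against 7.23 in activin library 2. In activin library 1 a longer peak of 5.84 covered the same place, but its centre lay beyond 1 kb from the start, so it was not counted as a promoter peak. Six5, a gene next to the myotonic dystrophy gene Dmpk, had 3.39 and 4.25 with vehicle against 8.14 and 5.54 with activin. Six3os1, a noncoding transcript beside the forebrain gene Six3, was weak, with a highest value of 1.62. No peak was named for Six3 itself, but its RefSeq window lay under weak peaks of 1.53 in vehicle library 2 and 1.55 in activin library 1.

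In the Lhx family, whose LIM domains recruit Ldb1, only Lhx2 was open. Lhx2, which acts in forebrain, eye and hair follicle, had 20.1 and 18.8 with vehicle against 43.1 and 32.1 with activin in the region chr2:38350426-38351665. The 43.1 of activin library 1 was the highest promoter value of any member. Its read density was 5.91 and 5.31 with vehicle against 7.76 and 7.11 with activin.

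Lhx9, a factor of gonad and limb development, had a weak peak in every library, at 2.88 and 2.31 with vehicle against 3.97 and 2.84 with activin. A further peak with the gene ID of Lhx9 at its promoter was named for the neighbour 2310009B15Rik, with 1.73 and 2.95 against 4.60 and 4.99. Lhx6 and Lhx8, factors of forebrain neurons, had a weak promoter peak in 1 library each. Lhx1, a factor of kidney and head formation, its noncoding neighbour Lhx1os and Lhx5 had none.

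Sox12 and Sox11 were the open members of the Sox family, and the third gene of their group, Sox4, was partly open. These SoxC proteins act in neural and mesenchymal progenitors. The Sox12 promoter region, chr2:152396316-152399477, was the longest among the open ones, with peaks of 3131 to 3162 bases. Its −log10 q was 20.3 and 17.1 with vehicle against 26.97 and 22.8 with activin, and its read density, 6.58 and 5.80 against 8.27 and 7.66, was the highest of the open promoters in 3 of the 4 libraries.

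Sox11, at chr12:27341209-27343866, lay at the threshold, with 6.12 and 5.00 against 8.58 and 7.23. Its read density, 2.04 and 1.67 with vehicle against 2.45 and 2.28 with activin, was the lowest of the open promoters in every library. Sox4 had 3.89 and 4.47 with vehicle against 5.61 and 3.71 with activin, so 1 library passed 5. Sox11 was thus just inside the open class, and Sox4 was outside it.

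Sox13, a SoxD gene, was the nearest gene below the open class, with 4.79 and 4.93 with vehicle against 10.4 and 7.32 with activin. Sox9, which drives cartilage and testis formation and also marks pituitary stem cells, was partly open with 2.83 and 4.11 against 5.09 and 5.23. Sox1, Sox6, Sox7, Sox14, Sox17, Sox21, Sox30 and the noncoding Sox6os were weak, and Sox6os and Sox21 were the only ones of these with a peak in 2 libraries. Sox5, Sox8, Sox10, Sox15, Sox18 and 6 noncoding names (Sox2ot, Sox5it, Sox5os1, Sox5os2, Sox5os3 and Sox5os5) had no promoter peak under their own names. Sox10, the neural crest and glia factor, had 3 peaks in all, none at its promoter. Sox18 had strong regions close by that count as distal here. The region at −1.98 kb had 9.45 and 6.74 with vehicle against 11.5 and 10.4 with activin. The region at −3.99 kb had 9.69 and 7.15 against 17.5 and 18.4.

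Of the Irx genes, which lie in 2 clusters and pattern heart and nervous system, Irx3 and Irx5 on chromosome 8 were open. Irx3 had 6.93 and 8.44 with vehicle against 13.1 and 11.5 with activin at chr8:91800782-91802258. Irx5 had 6.00 and 16.9 against 7.70 and 7.75. The 16.9 of vehicle library 2 belongs to a peak of 2530 bases that also spans the promoter of the neighbouring noncoding gene Crnde. In the other libraries the Crnde promoter was a separate and stronger peak, at 27.8 in vehicle library 1 and 37.9 and 36.3 in the activin libraries, while the Irx5 peaks there were 816 to 947 bases long.

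In the cluster on chromosome 13, Irx1 had 1 weak promoter peak, 1.21 in vehicle library 1, and Irx4 had none. Irx2 had none under its own name. However, peaks annotated to the Irx2 start site by gene ID were named for the neighbour Gm20554, with 15.3 and 13.0 with vehicle against 25.2 and 20.6 with activin. Irx6, on chromosome 8, had no promoter peak, and Irx3os had none under its own name. The strongest peak of the open Irx3 region was annotated to the Irx3os start site by gene ID. The RefSeq window of Irx3os had no peak.

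Of the Dlx genes, which act in forebrain interneurons and jaw, Dlx1 was open and its neighbour Dlx2 weak. The Dlx1 region, chr2:71528920-71530313, had 11.6 and 7.22 with vehicle against 14.8 and 11.5 with activin. Dlx2 had 2.12 and 1.94 against 4.21 and 2.79, a peak in every library but below 5 in each. Dlx5 had 1 weak peak, and Dlx3, Dlx4, Dlx1as and Dlx6os1 had none.

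In the Pax family Pax2, a factor of kidney and optic development, was partly open, with 2.997 and 3.03 with vehicle against 7.13 and 5.02 with activin. Pax8, of thyroid and kidney, had weak peaks in 3 libraries, and Pax1, Pax3 and Pax6 in 1 each, with values up to 1.61. Pax4, Pax7 and Pax6os1 had no promoter peak. Pax7 marks the melanotrope lineage of the pituitary intermediate lobe.

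Pax5, the B cell factor, had no promoter peak under its own name, but peaks carrying its gene ID at a promoter were named for the neighbour 5730488B01Rik. These had 16.8 and 12.9 with vehicle against 21.7 and 16.2 with activin at chr4:44703262-44704790 in activin library 1. Sox8 was a like case under the name 2810468N07Rik, with 8.27 and 6.42 against 16.9 and 8.68. Promoter peaks named for genes outside the members were then also counted by gene ID, a choice made after the data were seen. This gave 11 open genes, with Irx2, Pax5 and Sox8 added. Peaks named for another member, such as the Irx3 peak with the gene ID of Irx3os, were not recounted. The RefSeq windows of Irx2 and Sox8 lay under the peaks with their gene IDs, whereas the RefSeq window of Pax5, chr4:44710645-44710944, had no peak. ATAC-seq signal between 2 neighbouring starts does not say which gene uses it.

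In the Nkx family Nkx3-2, which acts in the skeleton, was partly open, with 2.66 and 2.63 with vehicle against 7.92 and 4.68 with activin. Nkx2-2os had peaks in 1 library of each treatment, 3.93 in vehicle library 2 and 5.32 in activin library 2. These peaks lay by the start given in the annotation. The RefSeq window of Nkx2-2os, chr2:147183833-147184132, lies elsewhere and had only a weak peak of 1.28 in vehicle library 2.

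Nkx2-4 and Nkx2-2, factors of ventral brain, had a peak below 5 in every library. Nkx2-4 had 2.00 and 1.68 against 2.07 and 1.79, and Nkx2-2 had 1.13 and 1.52 against 1.66 and 2.10, from peaks at more than 1 place within its promoter class. Nkx1-1, Nkx2-1, Nkx6-1 and Nkx6-3 were weak in 1 or 2 libraries. Nkx2-5 (heart), Nkx2-9 and Nkx6-2 (oligodendrocytes and spinal cord) had no promoter peak.

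**Figure D2:**
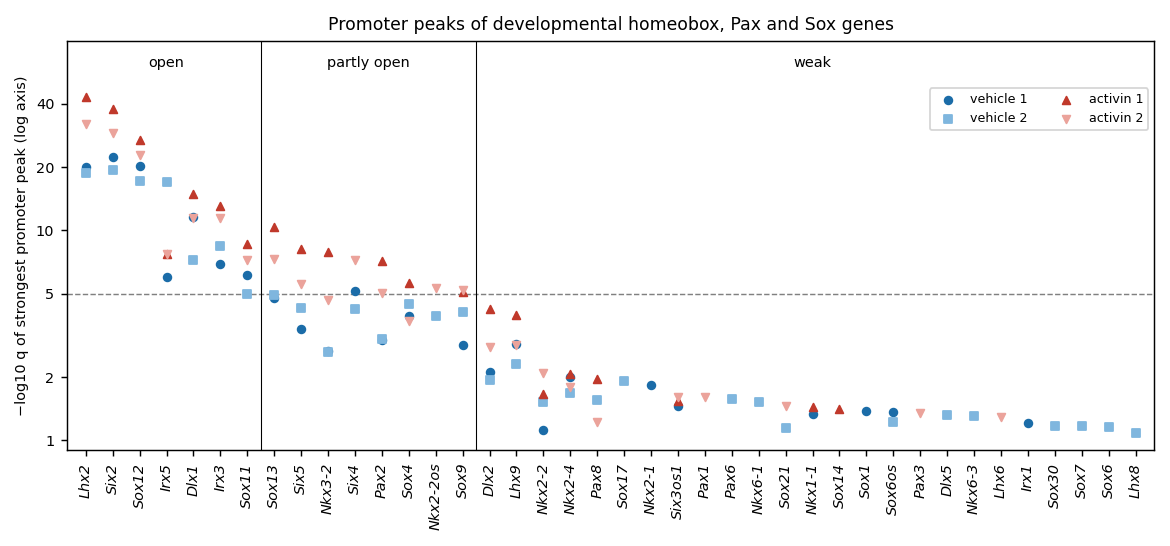
The −log10 q of the strongest promoter peak (y axis, log scale) in each library for 40 member genes with a promoter peak, ordered by class (x axis); circles and squares are vehicle libraries 1 and 2, triangles activin libraries 1 and 2, and the dashed line is 5. The 7 open genes shown span 5.00 to 43.1, and most weak genes have a point in 1 library only.

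**Figure D3:**
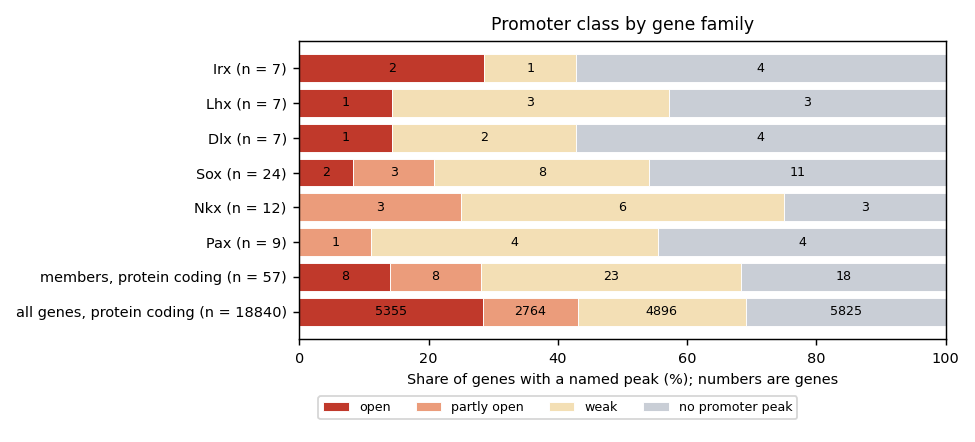
Share of genes with a named peak (x axis, percent) in each promoter class, for 6 of the families, all coding members and all coding genes (y axis), with the number of genes in each segment. The Irx family has 2 of 7 genes open, and 8 of 57 coding members are open against 5355 of 18840 coding genes.

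Among the RefSeq genes that fit the rule, 67 of 78 had a peak named for them in at least 1 library. The 11 without were Dlx4os, Dlx6, Dlx6os2, Nkx1-2, Nkx2-3, Nkx2-6, Pax9, Six3, Sox1ot, Sox3 and Sox5os4. Of these, 7 are protein coding. Pax9, of thymus and teeth, Nkx2-3, of spleen and gut, and Sox3, a progenitor factor also active in the pituitary's development, thus had no peak assigned to them.

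The 4 left-out pituitary factors were measured in the same way. Six6 was partly open, with 4.63 and 6.62 with vehicle against 7.97 and 10.2 with activin. Lhx4 was partly open too, with 4.60 and 2.68 against 5.34 and 6.12. Lhx3 had 1 peak under its name, not at the promoter, but 1 of its RefSeq windows lay under peaks with 2.35 and 3.85 against 9.89 and 7.59. Sox2 had no named peak and no peak over its window. None of the 4 was open by the rule that made Six2, Lhx2 and Sox12 open.

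Partners of these factors were counted from a list of 33 genes. Of these 10 were open, 7 partly open, 7 weak and 6 without a promoter peak, and 3 had no peak named for them. The 10 open genes of 33 were near the background of 28.4% of protein-coding names. That background holds only names with a peak, whereas the 33 include the 3 without. Among 6 partners of the sine oculis homeobox family, Eya1 was open, although its strongest promoter peak in activin library 2 lay at another site than in the other libraries. Among 9 LIM-homeodomain partners, Ldb1, Lmo2 and Ssbp2 were open, and Ssbp2 had 25.2 and 20.9 against 28.1 and 28.7. Pbx4 and Meis3 were among the open genes of 7 TALE homeodomain partners. Tle4 of 5 Groucho corepressors was open, and among 6 genes of Polycomb and H3K27 demethylation Suz12 and Jarid2 were. The strongest Jarid2 promoter peak in vehicle library 2 lay at another site than in the other libraries.

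At the open promoters the members' signal can be set beside that of all 5985 open genes. The median read density of the 8 was 4.28 and 4.16 with vehicle against 5.09 and 4.47 with activin, against 3.48 and 2.99, and 4.02 and 3.85, over all open genes. Their median fold over local background was lower, 3.21 and 2.94 with vehicle against 3.29 and 3.395 with activin, against 4.14 and 3.75, and 4.48 and 4.51. Their peaks were longer, with a median of 1251 to 1450.5 bases by library against 841 to 998. As medians, the 8 promoters therefore had more reads per kb but a lower fold than all open genes. Single promoters differed in density. Six2, Lhx2 and Sox12 lay above the median of all open genes in every library, and Irx3, Irx5 and Sox11 lay below it.

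**Figure D4:**
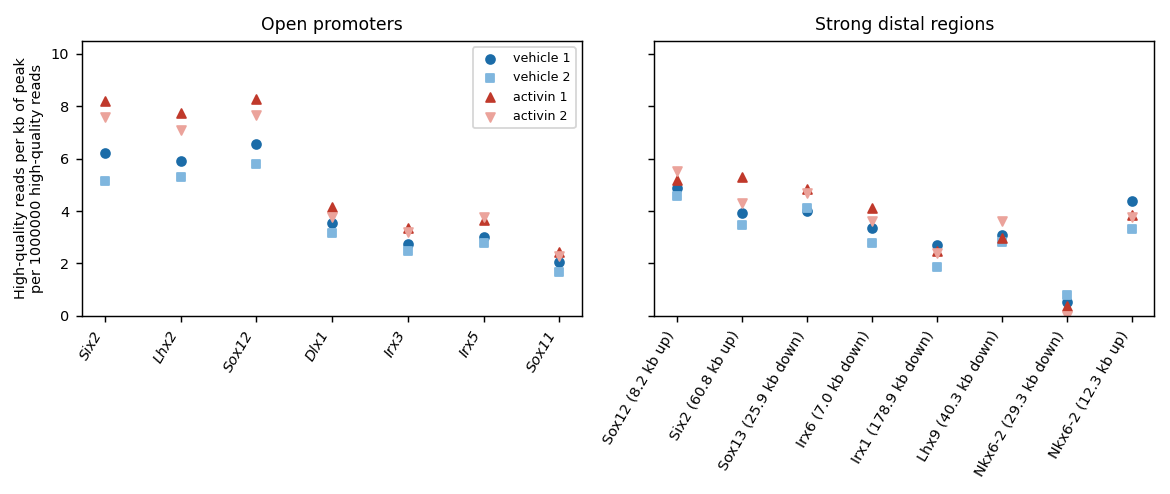
Read density (y axis, high-quality reads per kb of peak per 1000000 high-quality reads) in each library at 7 open promoters (left) and 8 of the distal regions with the highest lowest −log10 q (right); symbols as in the plot of promoter values. Densities at open promoters run from 1.67 for Sox11 to 8.27 for Sox12, and the Nkx6-2 region 29.3 kb downstream runs from 0 to 0.792.

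Away from promoters, 507 member regions held no promoter peak of any gene. Of these 50 had a peak in all 4 libraries and 18 a −log10 q of at least 5 in all 4, or 3.55%, against 1.27% of all 231798 such regions. The 18 were named for 12 genes. A gene name here is that of the nearest start site, so it does not show which gene a distal region acts on.

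Several of the strongest distal regions were named for genes with open promoters. One was an intergenic region at −8.187 kb of Sox12, chr2:152405785-152406716, with 17.4 and 17.4 with vehicle against 26.8 and 20.0 with activin. Another lay at −60.8 kb of Six2, chr17:85748613-85749532, with 14.1 and 13.2 against 28.8 and 19.6.

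Other strong distal regions lay by genes whose promoter was not open. An intron region of Sox13, 25.9 kb downstream of the start at chr1:133397568-133399482, had 12.9 and 13.0 with vehicle against 28.8 and 23.2 with activin, all above the Sox13 promoter in the same library. A region at the end of Irx6, chr8:92681289-92682260, had 14.97 and 9.99 against 22.7 and 16.1. One 178.9 kb downstream of the Irx1 start, chr13:71784382-71785297, had 9.76 and 9.91 against 25.9 and 12.8.

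Further down the order, a region 40.3 kb downstream of the Lhx9 start had 9.43 and 9.64 against 23.4 and 18.4. The region at −12.3 kb of Nkx6-2, chr7:139594488-139595646, had 8.12 and 7.27 against 12.6 and 10.3. Thus Irx1, Irx6, Lhx9 and Nkx6-2 had strong distal regions in all 4 libraries without an open promoter.

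The other strong Nkx6-2 region, an intron region 29.3 kb away at chr7:139553090-139553803, was different in kind. Its −log10 q was 9.49 and 14.2 with vehicle against 9.88 and 7.77 with activin, yet only 51, 125, 41 and 0 high-quality reads overlapped it, a density of 0.523, 0.792, 0.383 and 0. Of 70 member regions called in all libraries, 7 (10%) had a density under 0.3 in every library, against 2618 of 28977 (9.03%). These included introns of Sox6 and Sox5it and an Irx1 region. Which reads the peak caller used and the quality report left out at such places was not tested.

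The number of peaks per gene was uneven. Irx1 had 79 peaks over the 4 lists, the most of any member, in 48 distal regions of which 6 were called in every library and 2 were strong. Sox6 had 44 distal regions and Irx4 had 35, with 2 and 1 called in every library. The median was 8 peaks per member gene and 7 per gene name overall. Of the 554 member regions, 394 were called in 1 library only, 256 of them in vehicle library 2, and 70 in all 4. Over all regions 67.4% were called in 1 library, against 71.1% of the members'.

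The comparison of activin with vehicle asks whether 6 h of activin A changed the openness of these loci. The number of member genes with any promoter peak was 26 and 33 with vehicle against 23 and 27 with activin. At a −log10 q of at least 5 it was 9 and 9 with vehicle against 15 and 15 with activin. The same direction held over all gene names, 7062 and 6815 against 8739 and 8004. So more members passed 5 in each activin library, as did more of all gene names, while for any peak the libraries of the treatments overlapped.

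At the 8 open promoters, the lower activin −log10 q exceeded the higher vehicle one at 6, and the background over all open genes was 79.2%. Read density was ordered in the same way at 7 of the 8, against a background of 68%. The fold over local background was so at 3 of 8, against 60.7%. As a mean ± SD of 2 libraries, density went from 5.69 ± 0.772 to 7.89 ± 0.419 at Six2, from 5.61 ± 0.424 to 7.44 ± 0.458 at Lhx2 and from 6.19 ± 0.551 to 7.96 ± 0.432 at Sox12. These densities are not centred, and the median log2 change over all 13871 shared regions on that scale was 0.27 towards activin.

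For the test, each library's log2 density was centred on its median over shared regions, which are merged autosomal regions with exactly 1 peak in each library and a common part of at least 50% of their union. Of 13871 shared regions 37 were members', 14 with a promoter peak and 23 without. None of the 37 passed an adjusted p of 0.05 (limma, Benjamini-Hochberg over all shared regions), and the background was 0% of 13871. At an unadjusted p under 0.05 there were 3 member regions, all lower with activin, against a background of 9.53% in both directions, 5.91% lower and 3.62% higher. They were 0 of the 14 promoter regions and 3 of the 23 distal ones, against backgrounds of 7.8% and 11.9%. The median log2 change was 0.0027 over the members and −0.0049 over all shared regions, with a median standard error of 0.133 for the members.

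The 3 with the smallest p in the direction of lower signal were distal. The first was a Sox5it intron region 77.4 kb from the start, chr6:144594968-144595717, with a centred change of −2.18 ± 0.65 on the log2 scale (± SE here and below; limma adjusted p = 0.412). It rests on few reads: its densities were 0.148 and 0.0635 with vehicle against 0.0169 and 0.0205 with activin. An Nkx3-2 region at −25.0 kb, chr5:41788829-41789932, had densities of 1.54 and 1.26 against 1.34 and 1.13 and a centred change of −0.45 ± 0.18 (limma adjusted p = 0.491). The Nkx6-2 region at −12.3 kb had 4.39 and 3.31 against 3.85 and 3.79 and a centred change of −0.27 ± 0.11 (limma adjusted p = 0.498).

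In the other direction the 3 smallest p values belonged to promoters. Six2 had a centred log2 change of 0.21 ± 0.09 (limma adjusted p = 0.529), Nkx3-2 of 0.20 ± 0.13 (limma adjusted p = 0.649) and Lhx2 of 0.13 ± 0.09 (limma adjusted p = 0.652). None of these differences exceeded the spread between libraries by this test. A p above the threshold does not show that the regions were equal.

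Among the 14 promoter regions of members, 7 had both activin libraries above both vehicle libraries after centring and 2 had both below, against backgrounds of 25.9% and 14.7% of all promoter regions. Among the 23 distal regions 1 lay above and 5 below, against 14% and 28.4% of distal regions. Over all 37 it was 8 above and 7 below, and over all shared regions 20.9% and 20.5%. The median centred change was 0.065 at the members' promoters and −0.10 at their distal regions, and 0.03 and −0.07 over all promoter and distal regions.

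**Figure D5:**
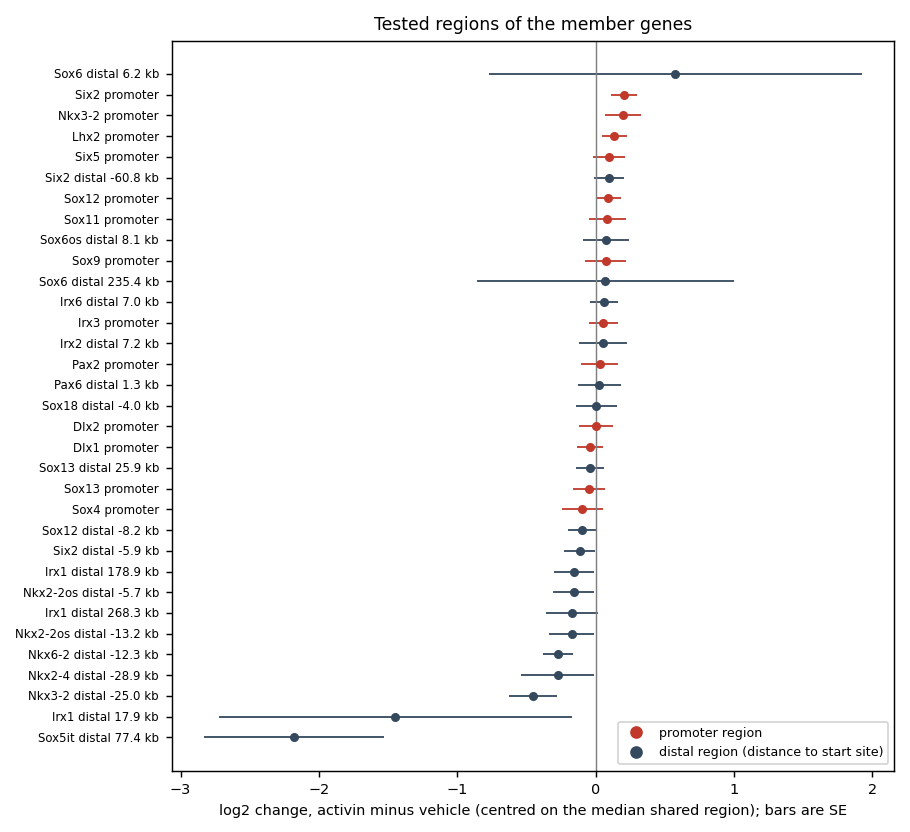
Centred log2 change in read density, activin minus vehicle (x axis), for 33 of the 37 tested member regions (y axis); points are limma estimates from 2 libraries per treatment, bars are standard errors, red marks promoter regions and dark blue distal ones. No region passed a limma adjusted p of 0.05, and the widest bars belong to Sox6, Irx1 and Sox5it regions with few reads.

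Peaks restricted to a treatment were counted as regions with a peak in both libraries of 1 treatment and in neither of the other. There were 5 member regions restricted to activin and 26 to vehicle, while the 4 pairs made of 1 library of each treatment had 6, 4, 17 and 12. These made up 0.903% and 4.69% of the members' regions, near the 1.35% and 4.86% of all 255101 regions. The 3 pairs that include vehicle library 2, whose list was the longest, had the highest counts. Counting only peaks at or above 5 turned the order: 8 of 56 member regions (14.3%) were restricted to activin and 0 to vehicle, against 12.0% and 0.382% of 21218 regions.

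The activin-restricted regions with high values included those at Dlx2 (at −35.3 kb, 2.17 and 1.83) and Pax3 (at −6.682 kb, 1.48 and 1.61). The vehicle-restricted ones were in a Sox5os2 intron (1.85 and 1.88), beside Dlx1as (1.81 and 1.92) and in an intron near Nkx3-2 (1.94 and 1.75). All of these values lay far below 5. The 8 regions above 5 with activin only were the promoters of Sox13, Sox9, Pax2 and Six5 and distal regions of Dlx3, Irx4, Nkx2-2os and Sox6os, and each had a weaker peak in both vehicle libraries. The Irx4 region, at −100.1 kb, had 4.04 and 3.65 with vehicle against 10.4 and 10.0 with activin from 134, 219, 303 and 208 reads. No member region with a value above 5 in both activin libraries was thus without a peak in the vehicle libraries.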

How the data were processed

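ATAC-seq of LβT2 cells was measured in 2 vehicle and 2 activin libraries. Reads were processed with Bowtie2, MACS2 and HOMER on GRCm38 (mm10), per the submitters' processing notes; their settings are not given in the sources used here. The authors deposited, for each library, a broad peak list whose columns, per the file headers and layout, give a whole-number score, a fold enrichment ratio, and −log10 of the p-value and of the q-value. The authors also deposited a HOMER annotation, whose signed distance to a start site is in bases and is recorded as a score here, and an ataqv 1.3.1 report, per the file headers, with the number of high-quality autosomal reads over each peak of the library's own list. Peaks were called per library, so presence depends on that library's depth (172146474 to 224226184 high-quality reads) and background.

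Peaks of all libraries were merged where they overlapped by at least 1 bp. Shared regions had exactly 1 peak of each library, with a common part of at least 50% of their union. Read numbers plus a pseudocount of 1 were divided by peak length, put on a log2 scale, shifted to a median of 0 in each library and compared by limma 3.58.1 (R 4.3.3, eBayes with trend, no replicate block), with Benjamini-Hochberg adjustment over all 13871 shared regions. No count model was used, because the intervals differ between libraries. In simulated data on 13871 regions for activin against vehicle, 187 of 200 regions changed by a log2 of 1 were called, 0 with the wrong sign, beside 19 unchanged ones. With none changed, 1 was called and 5.33% had an unadjusted p under 0.05.

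Gene families and lists were chosen with earlier results of these data known. The genes and regions named were all open genes, the 5 nearest below the threshold, up to 5 weak in every library, the 10 strongest distal regions, the 3 smallest p values in each direction, the 3 strongest regions restricted to each treatment, genes without a promoter peak, the 4 left-out genes and examples from the lists; other named members and those read by gene ID were chosen after their values were seen. Promoter windows are from RefSeq on GRCm38.p6. Distal sequences were not used here. Some members and listed genes stay in the counts and medians, but their own values are not reported here. Alternatives covered thresholds, promoter definitions, scaling, pseudocount, region rules, equal list lengths and leaving out each library.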

Additional observations from a re-analysis of the deposited data

How the results depend on the processing

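The number of open promoters, 8, stayed within 1.5 times that value with the promoter taken as peaks centred within 1 kb (6) or annotated or within 5 kb (10), by gene ID as well (11) and over RefSeq windows (8), the last 2 added after the data were seen; it was 4 at a −log10 q of at least 10, 16 at 2 and 4 with annotated promoters only, and 8 to 9 with each library left out. Strong distal regions numbered 18, against 4 at 10, 38 at 2, 10 with a common part of at least 50%, and 18 to 21 with each library left out. Genes with a promoter peak, activin minus vehicle, went from −4.5 to 6 at a −log10 q of at least 5 and to 2.5 with each list reduced to its 70692 strongest peaks, so the direction reversed, and from −8 to −1 with each library left out. Activin-restricted regions numbered 5, against 8 at 5, 11 with equal lists and 8 to 45 with each library left out; vehicle-restricted ones numbered 26, against 0, 10 and 29 to 282, the 282 without vehicle library 1 and 98 without vehicle library 2, since 1 library then meets the rule alone (31 and 45 restricted to activin without activin library 1 and 2, 13 without vehicle library 2). Regions past an adjusted p of 0.05 (limma) numbered 0 of 13871, 1 with a pseudocount of 10, 39 without division by length, 605 (553 higher) when scaled to all high-quality reads, and 0 to 9 with each library left out (1 without activin library 1, 9 without activin library 2), where a lone library was assumed to vary like the others; among members these gave 0 to 0, and 1 only without division by length, the Sox13 intron region (log2 change 0.45, limma adjusted p = 0.0437). The cause of these shifts was not tested.

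With the replicate block 4 regions passed, none of them a member. The labels do not say what a replicate number marks. The differences between replicates 1 and 2 in the vehicle and activin groups correlated at −0.025. This value cannot show whether libraries of the same number were prepared together, because each treatment gives a single difference.

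The changes of the 10 named regions were each recomputed under several alternative settings, and most of the recomputed values kept their direction. The direction reversed in 8 combinations of a region and a setting, none past the threshold on either side. These reversals fell only in the regions of Lhx2, Dlx1, Sox12, Nkx6-2 (distal) and Irx3. Without division by length Lhx2 (0.13) became −0.17, Dlx1 (−0.04) 0.26, Sox12 (0.09) −0.0654, Nkx6-2 (distal, −0.27) 0.0888 and Irx3 (0.06) −0.10. Scaled to all high-quality reads, Dlx1 became 0.23 and Nkx6-2 0.0017, and over all merged regions Dlx1 was 0.0677. The Sox5it intron value rests on 16, 10, 2 and 2 high-quality reads beside −log10 q values of 7.31, 11.3, 4.99 and 8.18; the cause was not tested.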
